A study of Sus scrofa with 30 samples.

Results

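Amino acid transporters are membrane proteins that carry amino acids into and out of cells, and 10 of their genes were followed here through the lactation cycle of the sow: SLC7A5, SLC3A2, SLC7A1, SLC7A2, SLC7A8, SLC1A1, SLC1A5, SLC38A2, SLC6A14 and SLC36A1. The genes were chosen by name, as carriers that supply the mammary gland with amino acids, and not by a rule on their measured levels. Earlier results of these data were known when they were chosen. All 10 of 10 were found among the 26012 genes and assembled loci of the table, as 15 of its 61773 transcripts. RNA was sequenced from mammary parenchyma taken below the third left teat of multiparous half-sibling Danish Landrace × Yorkshire sows, a different set of animals at each of 5 stages, with 6 samples per stage. The stages were mid-gestation (MG, day 70 of gestation), late gestation (LG, day 110 of gestation), early lactation (EL, day 2 postpartum), peak lactation (PL, day 10 postpartum) and the start of involution (W2, on day 2 following weaning). No sow carried a transgene or received a treatment named in the labels.

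The milk-secreting cell cannot make the essential amino acids of milk protein and takes them from the blood across its basolateral membrane. Several carriers are exchangers, which bring in 1 amino acid only by releasing another, while others use the sodium, chloride or proton gradient to concentrate their substrates in the cell. SLC3A2 is not a carrier itself: it is the heavy chain (4F2hc, CD98) that brings light chains such as SLC7A5 (LAT1) and SLC7A8 (LAT2) to the membrane.

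Not all samples could be used as replicates. At every stage, 3 of the 6 samples were near-identical to each other: the largest median difference between such samples was 1.80 to 1.85% across the stages, against 19.6 to 59.8% between the other 3, and in the median transcript the averages of both sets lay within 0.688 to 0.741% of each other. The 15 samples that varied were counted, giving n = 3 per stage. They are named here by stage and sample number: MG 1, 3 and 6, LG 1, 3 and 4, EL 3, 4 and 6, PL 2, 3 and 6, and W2 2, 3 and 6. The labels also contradict each other, because samples titled EL carry a stage entry for mid-gestation and samples titled MG one for early lactation. The titles were followed, and under the other reading the names EL and MG would change places in every result. The 6 milk protein genes listed took 1.19 to 2.95% of the total in samples titled MG, 3.40 to 5.94% at LG, 6.40 to 12.1% in samples titled EL, 9.14 to 28.5% at PL and 0.579 to 0.816% at W2.

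Values are in TPM, a measure of transcript abundance per length that adds up to nearly the same sum in every sample, so a rise of a few abundant transcripts lowers all others. The median of all genes moved between stages, by -0.47 on the log2 scale at PL against the other stages and by 0.68 from PL to W2. For PL it was -0.57 against MG, -0.45 against LG and -0.22 against EL, and for W2 against EL 0.45. Differences are given as deposited unless stated, and those of transporters that passed are also given after scaling by the median ratio, which sets samples level on genes expressed in all of them. The lowest median of all genes was that of PL 2, at 1.24 on the log2 scale against 1.93 and 1.94 in the other PL samples, and PL 2 also had the largest share of milk protein transcripts. Summed levels of fibroblast markers were 468 to 1082 TPM at PL and 1390 to 2617 TPM at W2, those of endothelial markers 68.9 to 101 TPM and 112 to 128 TPM, those of adipocyte markers 253 to 388 TPM and 499 to 616 TPM, and those of leukocyte markers 6.86 to 17.5 TPM and 23.9 to 38.1 TPM. The adipocyte sum was almost all FABP4 (234 to 370 TPM at PL, 497 to 613 TPM at W2), whereas LEP averaged 10.7 TPM at PL and 0.131 TPM at W2, and CIDEC 2.53 and 2.42 TPM. Among leukocyte markers CSF1R averaged 3.53 TPM at PL and 18.0 TPM at W2, and PTPRC 4.46 and 2.98 TPM. In the table were 5 of 5 fibroblast, 3 of 4 endothelial, 3 of 5 adipocyte, 4 of 5 leukocyte, 5 of 5 luminal epithelial and 4 of 5 basal markers listed, and ADIPOQ, PLIN1, CD68, CDH5 and KRT14 were not analysed here. The luminal epithelial markers overlapped, with 771 to 1592 TPM at PL and 1249 to 1720 TPM at W2. The part of these shifts in the results was not tested, and in a bulk tissue sample fewer cells of a type and less RNA per cell cannot be told apart.

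The transporters spanned a wide range of levels. Over the counted samples SLC6A14 had the highest mean of the 10, at 103 TPM, above 97.1% of all genes. It was followed by SLC38A2 at 48.4 TPM, SLC3A2 at 36.4 TPM, SLC1A5 at 30.7 TPM, SLC7A8 at 23.2 TPM and SLC7A5 at 16.8 TPM. SLC7A1 at 7.80 TPM, SLC36A1 at 6.36 TPM and SLC1A1 at 5.73 TPM were of modest level, and SLC7A2 at 0.874 TPM was the lowest of the group.

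**Figure D1:**
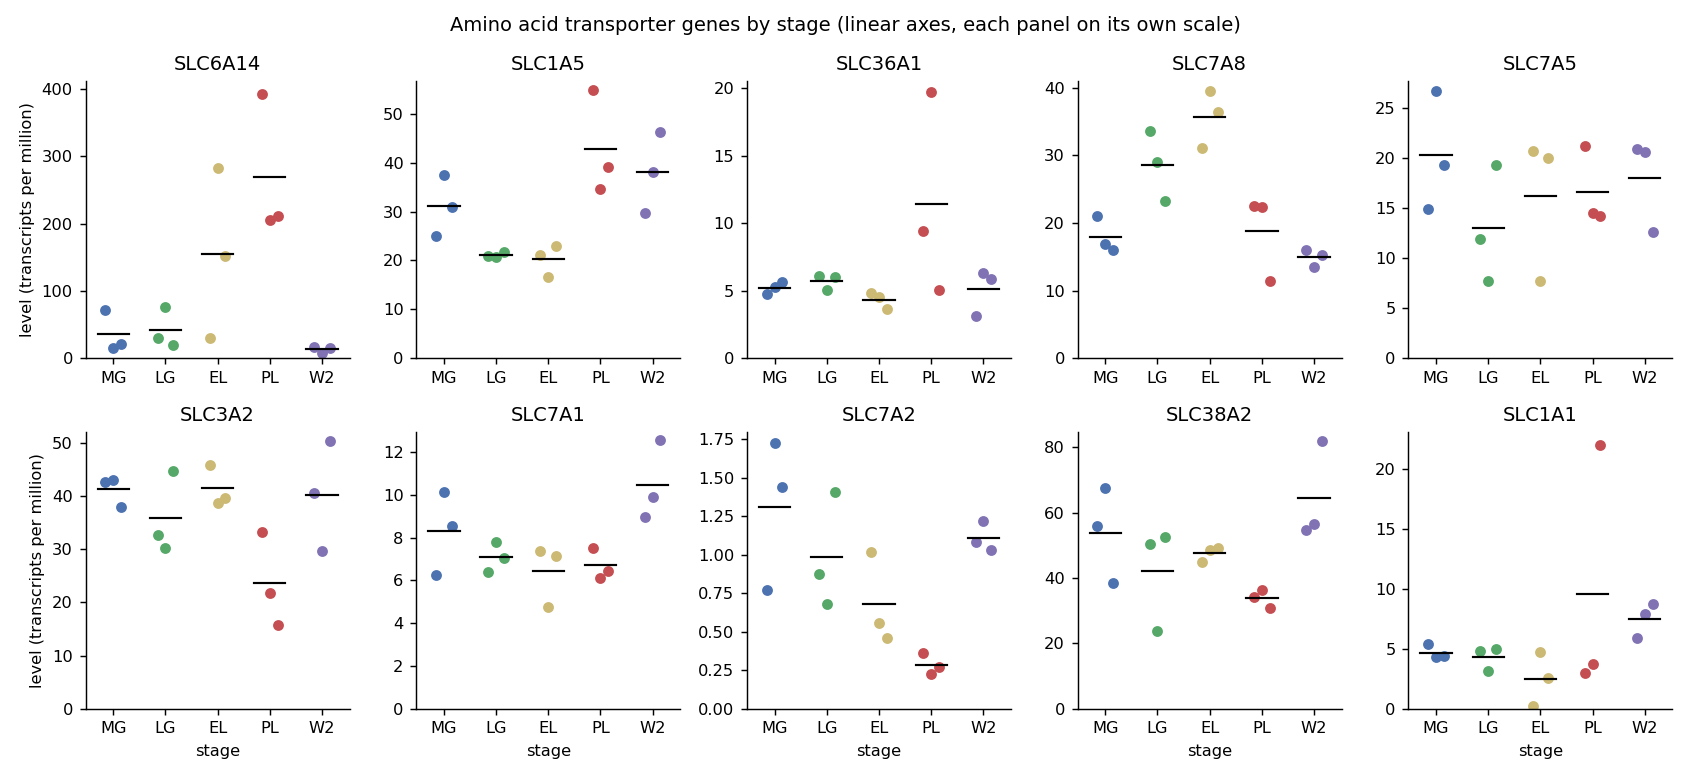
Level of each transporter gene (TPM, linear axis from 0, own scale per panel) in the 15 counted samples, by stage; points are samples and black lines stage means. SLC6A14 ranged from 206 to 393 TPM at PL and from 8.08 to 16.1 TPM at W2, while SLC7A2 had its 3 lowest values at PL.

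The comparisons asked which transporters changed as the gland moved into and out of milk secretion. In a moderated F test over the 5 stages (limma), 3 of the 10 genes passed at an adjusted p below 0.05: SLC6A14 (adjusted p = 0.0133), SLC1A5 (adjusted p = 0.0147) and SLC7A8 (adjusted p = 0.0160). Of all genes tested, 18.3% passed. At PL against the mean of the other stages, 5 of 10 passed, of which SLC6A14, SLC1A5 and SLC36A1 were higher and SLC3A2 and SLC7A2 lower. Of all genes tested 30.3% passed there, 3.03% as higher at PL and 27.3% as lower, the direction of SLC3A2 and SLC7A2. The median log2 difference of the 10 genes was -0.09, beside -0.47 for all genes.

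The system B(0,+) carrier SLC6A14 (X, 95482494 to 95507200 in Sscrofa11.1) takes up neutral and cationic amino acids with sodium and chloride. It was listed at 393, 206 and 211 TPM in PL samples 2, 3 and 6, and at 16.1, 8.08 and 14.6 TPM in W2 samples 2, 3 and 6. At EL the samples were far apart, at 29.7, 282 and 152 TPM, while MG samples had 72.01, 15.0 and 21.0 TPM and LG samples 29.9, 76.2 and 19.6 TPM. The PL and W2 samples did not overlap, whereas EL 4 lay among the PL samples.

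SLC6A14 was 7.41-fold higher at PL than at the other stages (log2 difference 2.89 ± 0.62 SE, limma adjusted p = 0.0048; exact two-sided permutation p = 0.0132, where 0.0044 is the smallest this design allows). From PL to W2 it fell 20.0-fold (log2 difference -4.32 ± 0.79, limma adjusted p = 0.0019). These comparisons share the PL samples and are not independent. After median ratio scaling the log2 differences were 3.45 ± 0.69 (limma adjusted p = 0.0054) and -5.05 ± 0.88 (limma adjusted p = 0.0031). Both passed in every alternative tried, with leave-one-out values of 2.58 to 3.06 for PL against the other stages and -4.50 to -4.02 for W2 against PL.

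The stage means of SLC6A14 descended from PL (270 ± 107 TPM, SD, n = 3) over EL (155 ± 126), LG (41.9 ± 30.1) and MG (36.0 ± 31.3) to W2 (12.9 ± 4.26). No neighbours in that order differed beyond the spread: PL exceeded EL by 1.24 ± 0.79 on the log2 scale (limma adjusted p = 0.43). PL did exceed MG by 3.16 ± 0.79 (limma adjusted p = 0.0134), which was lost without MG 3 (limma adjusted p = 0.0622). PL also exceeded LG by 2.84 ± 0.79 (limma adjusted p = 0.0317), and this was lost without LG 1 (limma adjusted p = 0.0908), LG 4 (0.125) or PL 2 (0.0994). Both passed after median ratio scaling, at 3.81 ± 0.88 (limma adjusted p = 0.0152) and 3.35 ± 0.88 (limma adjusted p = 0.0343).

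Through this gene, the makeup of the group at PL stood apart from that at MG, LG and W2. The EL samples overlapped with those of PL, LG and MG. SLC6A14 made up 56.3 to 67.8% of the summed level of the 10 transporters in the PL samples, 14.3 to 63.0% at EL, 9.77 to 37.3% at LG, 6.59 to 28.9% at MG and 4.21 to 8.17% at W2. The sum of all 10 was 433 ± 126 TPM at PL and 213 ± 31.8 TPM at W2 (SD, n = 3). Without SLC6A14 the sum was 164 ± 20.9 TPM at PL and 200 ± 30.2 TPM at W2, and ranges of those stages overlapped. Within a sample, where scaling cancels, SLC6A14 stood at 5.63 to 11.5 times SLC38A2 in the PL samples and at 0.143 to 0.294 times SLC38A2 in the W2 samples.

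**Figure D2:**
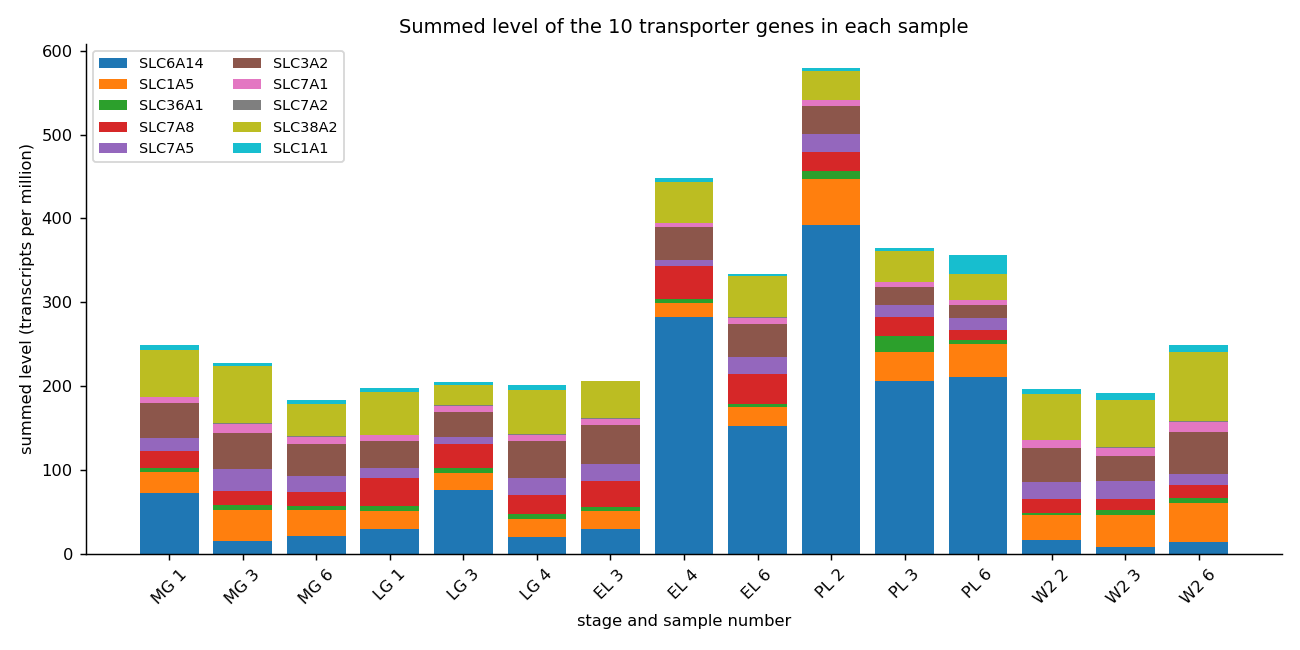
Summed level (TPM) of the 10 transporter genes in each counted sample, stacked by gene. SLC6A14, the lowest block, fills 56.3 to 67.8% of the PL bars and 4.21 to 8.17% of the W2 bars.

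The sodium-dependent exchanger SLC1A5 (ASCT2; chromosome 6, 52647432 to 52661464) moves glutamine and other small neutral amino acids. Levels were 54.8, 34.6 and 39.1 TPM at PL, at 20.9, 20.7 and 21.8 TPM at LG and at 21.1, 16.7 and 23.0 TPM at EL. All PL samples thus lay above all LG and EL samples, and the share of all genes placed in this way was not computed. MG samples had 25.0, 37.4 and 30.9 TPM and W2 samples 29.8, 38.1 and 46.3 TPM, and both overlapped with PL.

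SLC1A5 was higher at PL than at LG by 0.97 ± 0.22 on the log2 scale (limma adjusted p = 0.0135) and than at EL by 1.05 ± 0.22 (limma adjusted p = 0.0202). Median ratio scaling made these 1.48 ± 0.26 (limma adjusted p = 0.0050) and 1.38 ± 0.26 (limma adjusted p = 0.0114), and PL also passed against MG at 1.10 ± 0.26 (limma adjusted p = 0.0187). Of all genes 14.7% passed between PL and LG and 4.62% between PL and EL. Only the call against EL depended on single samples among these pairs, and it was lost without EL 3 (limma adjusted p = 0.0631) or EL 4 (limma adjusted p = 0.0601). Against the mean of the other stages SLC1A5 was 1.58-fold higher (0.66 ± 0.18, limma adjusted p = 0.0147; exact two-sided permutation p = 0.0440), falling to 0.47 without PL 2 (limma adjusted p = 0.0823). After median ratio scaling it was 1.21 ± 0.21 (limma adjusted p = 0.0020).

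From PL to W2, SLC1A5 differed by -0.16 ± 0.22 as deposited (limma adjusted p = 0.606) and by -0.90 ± 0.26 after median ratio scaling (limma adjusted p = 0.0429). Its ratio to SLC3A2 within a sample was 1.60 to 2.49 at PL and 0.430 to 1.29 across the samples of the other stages, with no overlap. Such ratios were not computed for all pairs of genes.

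SLC36A1 (PAT1; chromosome 16, 71540646 to 71589532) is a proton-coupled carrier of small amino acids such as glycine, alanine and proline that is also found on lysosomes. The PL samples had 9.47, 19.7 and 5.09 TPM. Elsewhere it was even, at 4.77, 5.29 and 5.65 TPM at MG, 6.06, 5.04 and 6.05 TPM at LG, 4.83, 4.54 and 3.62 TPM at EL and 3.09, 6.32 and 5.90 TPM at W2. PL 2 and PL 3 were above every other sample, whereas PL 6 was among them.

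The difference of SLC36A1 at PL was 0.92 ± 0.31 on the log2 scale (limma adjusted p = 0.0395; exact two-sided permutation p = 0.0308). It was no firm call as deposited, since it was lost in 11 of 15 fits that left out 1 sample, with the lowest value, 0.44, without PL 3 (limma adjusted p = 0.24). Leaving out PL 2 (limma adjusted p = 0.0964) or any of the 9 MG, LG and EL samples (0.0501 to 0.0588) ended it too. After median ratio scaling it was 1.45 ± 0.30 (limma adjusted p = 0.0069). W2 was lower than PL by -0.95 ± 0.39 (limma adjusted p = 0.0782) and after scaling by -1.64 ± 0.39 (limma adjusted p = 0.0151).

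Among the members of the heteromeric family, SLC3A2 (4F2hc; chromosome 2, 8892071 to 8919070) was listed at 33.3, 21.7 and 15.7 TPM at PL. It stood at 42.7, 43.0 and 37.9 TPM at MG, 32.6, 30.2 and 44.7 TPM at LG, 45.8, 38.8 and 39.6 TPM at EL and 40.5, 29.6 and 50.3 TPM at W2. PL 3 and PL 6 were below every other sample and PL 2 overlapped with LG and W2.

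SLC3A2 was lower at PL by -0.79 ± 0.21 (limma adjusted p = 0.0138; exact two-sided permutation p = 0.0176) as deposited, and by -0.54 without PL 6 (limma adjusted p = 0.0758). After median ratio scaling the difference was -0.23 ± 0.26 (limma adjusted p = 0.596). PL was also below MG as deposited, by -0.86 ± 0.26 (limma adjusted p = 0.0321), a comparison in which 25.2% of all genes passed. It was -0.21 after median ratio scaling (limma adjusted p = 0.756). That call was lost without MG 1, MG 3, MG 6, PL 3 or PL 6, with adjusted p of 0.0614 to 0.0953.

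SLC7A8 (LAT2; chromosome 7, 75854700 to 75921931), an exchanger of neutral amino acids that pairs with SLC3A2, followed another course. It was listed at 21.0, 16.9 and 15.9 TPM at MG, 33.5, 29.1 and 23.3 TPM at LG, 31.1, 39.6 and 36.4 TPM at EL, 22.5, 22.4 and 11.5 TPM at PL and 15.9, 13.5 and 15.3 TPM at W2. As deposited, all LG and EL samples were above all samples of MG, PL and W2. This grouping was read off the values, and the share of all genes split in this way was not computed. It did not hold after median ratio scaling. On that scale PL 2 was at 40.0, above LG 1, 3 and 4 (33.0, 28.6 and 21.2) and above EL 3 and EL 6 (30.4 and 39.3). Stage means were in the order EL, LG, PL, MG and W2, and of these neighbours EL and LG differed by 0.32 ± 0.25 (limma adjusted p = 0.802).

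SLC7A8 was lower at PL than at EL by -0.96 ± 0.25 (limma adjusted p = 0.0460), and this call was held in 2 of 15 leave-one-out fits, those without PL 2 or PL 3. Without the other samples the adjusted p was 0.0534 to 0.127, and after median ratio scaling the difference was -0.64 ± 0.32 (limma adjusted p = 0.324). The F test passed without any 1 of the 15 samples. Under the other reading of the labels, the peak at EL would be a peak at MG. Within a sample SLC7A8 was 0.521 to 1.03 times SLC3A2 at LG, EL and PL, 0.393 to 0.493 times at MG and 0.304 to 0.457 times at W2.

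SLC7A5 (LAT1; chromosome 6, 1545940 to 1574298) exchanges large neutral amino acids such as leucine against glutamine. The annotation used here has 1 transcript of this gene, XR_002344446.1, whose accession marks a non-coding model, and assembled loci, which carry no symbol, were not added to it. It was listed at 14.9, 26.8 and 19.3 TPM at MG, 11.9, 7.75 and 19.3 TPM at LG, 20.8, 7.75 and 20.0 TPM at EL, 21.2, 14.5 and 14.2 TPM at PL and 20.9, 20.6 and 12.6 TPM at W2. All stages overlapped, and none of its stage pairs passed (F test, limma adjusted p = 0.679).

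Across the 15 samples no correlation between the heavy chain and 5 light chains passed. Between SLC3A2 and SLC7A5, Pearson's r was 0.22 (permutation p = 0.441, adjusted over 5 light chains 0.734) and Spearman's rho 0.27 (permutation p = 0.320, adjusted 0.799). Leaving out the PL 3 and PL 6 samples, farthest in SLC3A2, gave r = 0.24, and deviations from the stage means gave r = 0.32 (permutation p = 0.218, adjusted 0.467). For SLC7A8 r was 0.29 (permutation p = 0.297, adjusted 0.734) and rho 0.15 (permutation p = 0.591, adjusted 0.799), and r became -0.10 without those samples and 0.41 in deviations from the stage means (permutation p = 0.495, adjusted 0.495). The other light chains gave r of 0.08 for SLC7A6, -0.38 for SLC7A7 and 0.14 for SLC7A11 (permutation p = 0.795, 0.160 and 0.588, adjusted 0.795, 0.734 and 0.735), and rho of 0.04, -0.13 and 0.21 (permutation p = 0.892, 0.639 and 0.456, adjusted 0.892, 0.799 and 0.799). Without PL 3 and PL 6 these r were 0.11, 0.32 and -0.22. In deviations from the stage means they were 0.41, -0.48 and 0.61 (permutation p = 0.280, 0.438 and 0.227, adjusted 0.467, 0.495 and 0.467).

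The cationic amino acid carriers SLC7A1 (CAT1; chromosome 11, 6538053 to 6604654) and SLC7A2 (CAT2; chromosome 17, 5191973 to 5271849) bring in arginine, lysine and ornithine. SLC7A1 was listed at 6.25 to 10.1 TPM at MG, 6.40 to 7.81 TPM at LG, 4.75 to 7.37 TPM at EL, 6.10 to 7.53 TPM at PL and 8.97 to 12.6 TPM at W2. W2 samples were above PL samples without overlap, by 0.60 ± 0.23, which did not pass (limma adjusted p = 0.0634), and the sign turned after median ratio scaling (-0.10 ± 0.23, limma adjusted p = 0.827).

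SLC7A2 was scarce throughout, at 0.361, 0.223 and 0.269 TPM at PL and 1.08, 1.22 and 1.03 TPM at W2. The samples of MG had 0.770, 1.72 and 1.44 TPM, those of LG 0.873, 0.677 and 1.40 TPM and those of EL 1.02, 0.557 and 0.459 TPM. On the deposited scale all 3 PL samples lay below the other 12, as for 11.3% of all genes. No member had all PL samples above the others on that scale (1.1% of all genes did). After median ratio scaling PL 2, at 0.642, lay above EL 6, at 0.496. As deposited SLC7A2 was lower at PL by -0.92 ± 0.23 (limma adjusted p = 0.0117; exact two-sided permutation p = 0.0044, the smallest possible), and after median ratio scaling by -0.64 ± 0.22 (limma adjusted p = 0.0664). It was lower at PL than at MG by -1.17 ± 0.30 (limma adjusted p = 0.0141), or by -1.003 without MG 3 (limma adjusted p = 0.0576) and by -0.82 after scaling (limma adjusted p = 0.0776).

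The sodium-coupled carrier SLC38A2 (SNAT2; chromosome 5, 77113491 to 77127715) takes up alanine, glutamine and other small neutral amino acids and is known to be induced when amino acids are short. Levels were 34.3, 36.5 and 30.9 TPM at PL and 54.6, 56.7 and 81.9 TPM at W2, without overlap. MG samples had 55.9, 67.4 and 38.4 TPM, LG samples 50.4, 23.7 and 52.7 TPM and EL samples 44.8, 48.7 and 49.3 TPM. LG 3 was the lowest of all samples, below those of PL.

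SLC1A1 (EAAC1; chromosome 1, 217366493 to 217441643), a sodium-coupled carrier of glutamate and aspartate, rested on single samples. Levels were 3.01, 3.77 and 22.0 TPM at PL, 0.197, 4.73 and 2.58 TPM at EL, 4.34 to 5.39 TPM at MG, 3.18 to 4.97 TPM at LG and 5.93 to 8.75 TPM at W2. PL 6 was the highest and EL 3 the lowest of all samples, and no comparison passed (F test, limma adjusted p = 0.324). The difference at PL was 0.61 ± 0.57 (limma adjusted p = 0.459) and changed sign to -0.24 without PL 6. On the median ratio scale it was 1.12 ± 0.57 (limma adjusted p = 0.22).

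From PL to W2, 4 of 10 transporters passed, of which SLC6A14 was lower and SLC7A2, SLC38A2 and SLC3A2 were higher. Of all genes 32.8% passed, 30.4% being higher at W2 and 2.48% lower. Samples did not overlap for SLC6A14, SLC7A1, SLC7A2 and SLC38A2, and for 44.0% of all genes. The differences were 1.04 ± 0.30 for SLC7A2 (limma adjusted p = 0.0183), 0.90 ± 0.29 for SLC38A2 (limma adjusted p = 0.0334) and 0.79 ± 0.26 for SLC3A2 (limma adjusted p = 0.0364).

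The rises of SLC38A2 and SLC3A2 were near the median shift of all genes, 0.68. That of the scarce SLC7A2 depended on the constant added before the log. It was 1.67 (limma adjusted p = 0.0121) with 0.1 added and 0.72 (limma adjusted p = 0.0239) with 1 added. After median ratio scaling none of these rises passed, with 0.65 for SLC7A2 (limma adjusted p = 0.149), 0.16 for SLC38A2 (limma adjusted p = 0.786) and 0.06 for SLC3A2 (limma adjusted p = 0.951). On that scale 3 of 10 were lower at W2 (SLC6A14, SLC1A5 and SLC36A1) and 0 higher by limma, beside 5.66% of all genes lower and 7.42% higher. At PL against the other stages the same 3 passed as higher on that scale and 0 as lower, beside 7.41% and 8.96% of all genes. Among all genes called, 92.5% were higher at W2 as deposited and 56.7% after scaling; at PL against the other stages 10.0% and 45.3% were higher. Leaving out 1 sample also mattered: the SLC38A2 call was lost without PL 2, PL 6, W2 3 or W2 6 (adjusted p of 0.0568 to 0.122), that of SLC3A2 without PL 3, PL 6, W2 2 or W2 6 (0.0718 to 0.132) and that of SLC7A2 without W2 3 (0.0508).

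**Figure D3:**
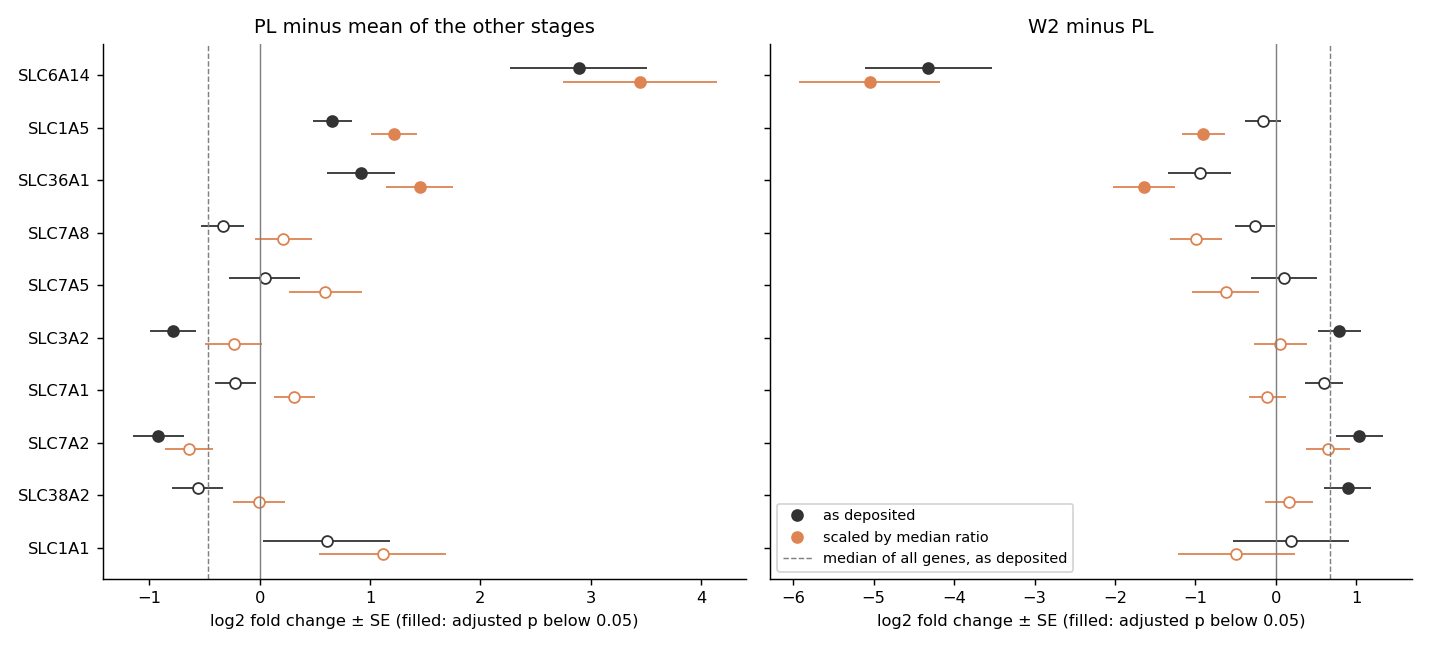
Log2 differences (± SE) of the 10 transporter genes at PL against the mean of the other stages (left) and at W2 against PL (right), as deposited (black) and after median ratio scaling (orange); filled points passed at an adjusted p below 0.05 and the dashed line is the median of all genes as deposited. SLC6A14 passed on both scales in both panels, and the lower values of SLC3A2 and SLC7A2 at PL passed only as deposited.

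In the other stage pairs no transporter passed with limma. At an unadjusted p below 0.05 there were 2 of 10 between LG and MG, 3 between EL and MG, 0 between EL and LG, 0 between W2 and MG, 4 between W2 and LG and 5 between W2 and EL. The shares of all genes below that unadjusted p were 4.43%, 15.9%, 6.19%, 3.09%, 7.57% and 25.1%. Few genes of any kind passed there: 0.0115% between LG and MG, 0.0269% between EL and MG, 0.0154% between EL and LG, 0.0115% between W2 and MG, 0.0346% between W2 and LG and 0.554% between W2 and EL. The nearest were SLC7A8, lower at W2 than at EL by -1.23 ± 0.25 (limma adjusted p = 0.0514), SLC1A5, higher by 0.88 ± 0.22 (limma adjusted p = 0.0765), and SLC6A14, lower by -3.08 ± 0.79 (limma adjusted p = 0.0776). Median ratio scaling gave -1.62, 0.48 and -3.48 (limma adjusted p = 0.0600, 0.490 and 0.125). All 3 passed without PL 2, a sample of neither stage (limma adjusted p = 0.0112, 0.0156 and 0.0303). With the study's further criterion of an absolute log2 difference of at least 2, SLC6A14 was the 1 member called at PL against the other stages and from PL to W2, where 3.16% and 5.22% of all genes were called.

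Some gene sums hid a change of transcript. Of SLC36A1, the transcript XM_003134140.5 held 76.4% of the sum over the counted samples and XM_021077072.1 held 20.4%. XM_021077072.1 held nearly all of the sum in MG 1 (4.65 TPM), EL 6 (3.62 TPM), W2 2 (3.03 TPM) and W2 6 (5.90 TPM), and it was listed at 0 in 8 samples. XM_003134140.5 was at 9.47, 17.7 and 4.24 TPM in the PL samples. Samples of the same stage were thus assigned to different transcripts.

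SLC7A8 had XM_021099239.1 with 87.0% of its sum and XM_021099240.1 with 13.0%, the latter reaching 13.7 TPM in LG 1. For SLC38A2, LG 3 had 17.2 TPM of XM_013997964.2, a minor transcript with 5.93% of the sum over all counted samples, and 6.49 TPM of XM_003126626.6. XM_013997964.2 falls below the share set for naming transcripts and was named after its values were seen. When each gene was represented by its leading transcript in a fit over all transcripts, SLC6A14 was the 1 member that passed in any comparison. It passed from PL to W2, at PL against the other stages, between PL and MG and in the F test, where 7.13%, 6.85%, 4.28% and 2.6% of all transcripts passed.

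**Figure D4:**
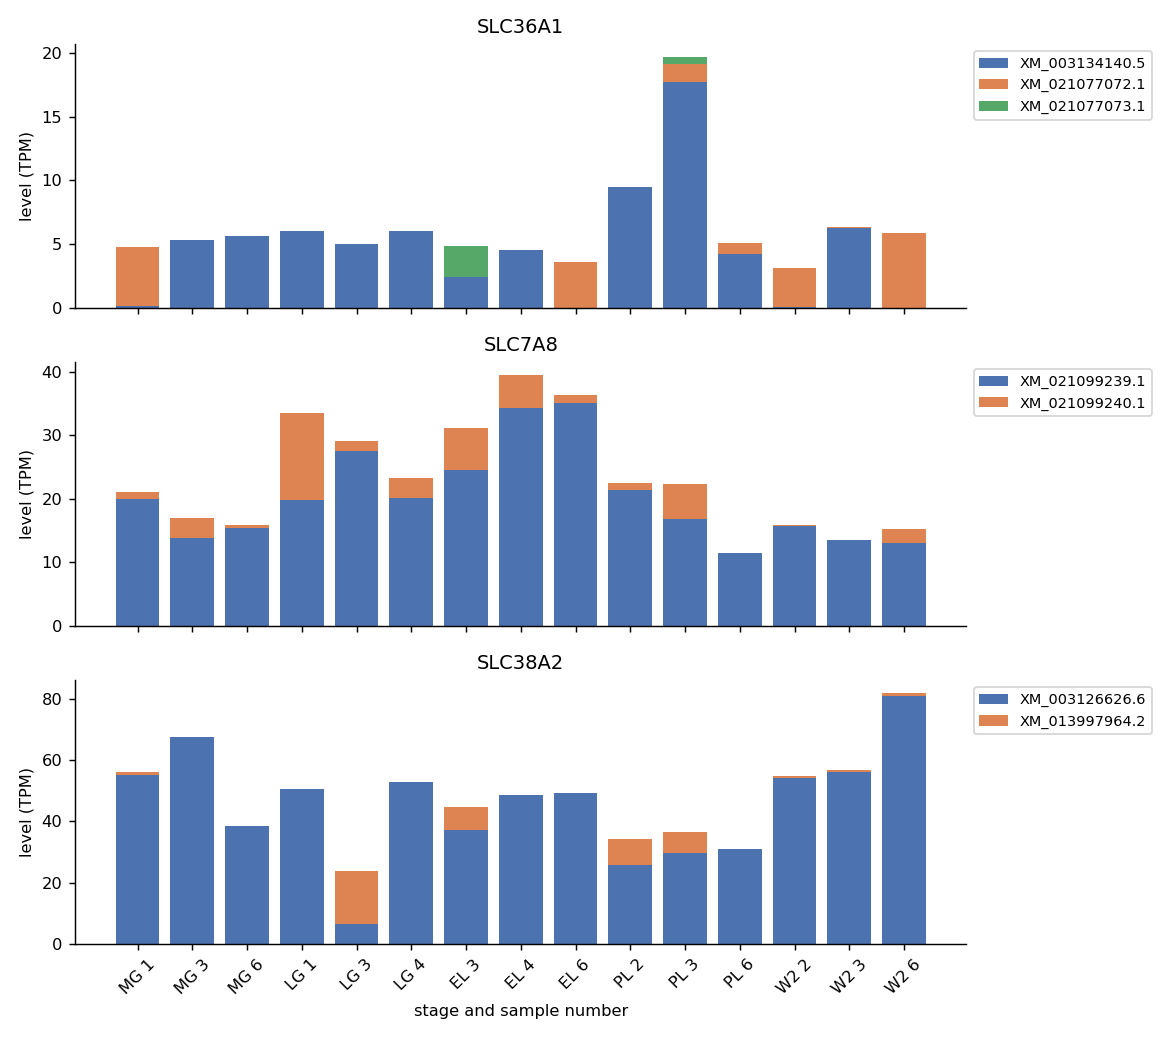
Level (TPM) of the annotated transcripts of SLC36A1, SLC7A8 and SLC38A2 in each counted sample, stacked. SLC36A1 is carried by XM_003134140.5 in most samples but by XM_021077072.1 in MG 1, EL 6, W2 2 and W2 6.

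The genes whose course over the 15 samples was most like that of a transporter were found among 12003 genes with a mean of at least 5 TPM, by the mean absolute difference of centred log2 values. The nearest to SLC6A14 was CSN3, the gene of the milk protein kappa-casein, at 0.43, followed by the assembled locus MSTRG.13660, also at 0.43. For SLC1A5 they were KCNK1 (0.19) and ACAT2 (0.20), the latter an enzyme of acetoacetyl-CoA formation, and for SLC36A1 CCDC71L (0.26) was among the nearest. SLC7A8 was nearest to the nucleoside carrier SLC29A1 (0.19) and the assembled locus MSTRG.7842 (0.22), and SLC3A2 to PPA1 (0.16) and the glycolytic enzyme PGK1 (0.16). The others were COX7A2 and NT5C3B for SLC38A2 (both 0.17), HNRNPF (0.11) and ARL2BP (0.12) for SLC7A1, WDR18 and LARS2 for SLC7A2 (both 0.14), TEX261 (0.25) and DNM2 (0.27) for SLC7A5, and EFR3A (0.36) and FMO1 (0.39) for SLC1A1. The samples share stage and library, so these are descriptions.

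Of 30 other amino acid carriers listed for comparison, 22 were in the table, and at PL against the other stages 0 of them passed as higher by limma and 2 as lower, beside 3.03% and 27.3% of all genes. SLC16A10 (TAT1), a facilitative carrier of aromatic amino acids, was at 1.32, 1.32 and 1.46 TPM at PL and at 2.56 to 6.69 TPM in the other 12 samples. SLC38A3 (SNAT3), a glutamine carrier, was at 64.6, 49.4 and 55.6 TPM at PL and at 91.3 to 153 TPM elsewhere. In both genes all PL samples lay below the other 12 as deposited, as for 11.3% of all genes. Overlap after median ratio scaling was not examined for these genes.

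SLC16A10 was lower at PL by -1.49 ± 0.18 (limma adjusted p = 0.00015) and SLC38A3 by -1.17 ± 0.16 (limma adjusted p = 0.00033), and both passed after median ratio scaling, at -1.04 (limma adjusted p = 0.0013) and -0.61 (limma adjusted p = 0.0445). SLC6A9, a glycine carrier, differed by 0.70 ± 0.25 as deposited (limma adjusted p = 0.0515) and passed as higher after that scaling (1.12 ± 0.23, limma adjusted p = 0.0057). It is named here because its call depended on the scale. At W2 both genes were higher than at PL, by 1.87 ± 0.23 and 1.24 ± 0.20 (limma adjusted p = 0.00022 and 0.0011), and after scaling by 1.26 and 0.49 (limma adjusted p = 0.0024 and 0.205). SLC38A10 also passed there at 1.86 ± 0.57 (limma adjusted p = 0.0248) but rested on W2 3 at 5.49 TPM and W2 6 at 1.63 TPM, against 0.195 TPM in W2 2. That call was lost without PL 2, W2 3 or W2 6 (limma adjusted p = 0.0562, 0.0706 and 0.0619), with a difference of 1.09 without W2 3. SLC7A10, a carrier of small neutral amino acids, was lower at PL than at MG by -1.16 ± 0.40 (limma adjusted p = 0.0488), which 11 of 15 leave-one-out fits lost.

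The amino acid response list held 12 genes of the pathway in which uncharged tRNA is sensed by EIF2AK4 (GCN2) and transcription is driven by ATF4. At PL 3 of 12 passed as higher (CHAC1, TRIB3 and ATF3) and 3 as lower (PSAT1, PHGDH and EIF2AK4), beside 3.03% and 27.3% of all genes. CHAC1, an enzyme that breaks down glutathione, was at 0.314, 2.13 and 4.08 TPM at PL and at most 0.333 TPM in the other 12 samples, with a difference of 1.74 ± 0.40 (limma adjusted p = 0.0068). The calls of TRIB3 (0.62 ± 0.21, limma adjusted p = 0.0453) and ATF3 (0.53 ± 0.19, limma adjusted p = 0.0473) were lost in 13 and 12 of 15 leave-one-out fits. Their values were lowest without PL 3 for TRIB3 (0.34) and without PL 2 for ATF3 (0.42). All 3 passed as higher after median ratio scaling, at 2.05 for CHAC1, 1.11 for TRIB3 and 1.08 for ATF3 (limma adjusted p = 0.0033, 0.0012 and 0.0086).

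PSAT1 and PHGDH, enzymes of serine synthesis, moved the other way. PSAT1 was at 35.5, 18.1 and 19.3 TPM at PL and at 49.6 to 154 TPM in all other samples as deposited. All PL samples lay below the others in this way for 11.3% of all genes. PSAT1 was lower by -1.95 ± 0.20 (limma adjusted p = 6.5e-05) and by -1.40 after median ratio scaling (limma adjusted p = 0.0027). PHGDH was lower by -1.10 ± 0.23 (limma adjusted p = 0.0042) and by -0.67 after scaling (limma adjusted p = 0.0443). EIF2AK4 was lower by -0.68 ± 0.19 (limma adjusted p = 0.0194) and did not pass after scaling (-0.16, limma adjusted p = 0.405).

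Of 18 genes of amino acid metabolism, 16 were in the table, of which 8 were lower at PL as deposited and 0 higher by limma, beside 27.3% and 3.03% of all genes. The list's median was -0.58, near the -0.47 of all genes. After median ratio scaling 1 of the 8, ODC1, the first enzyme of polyamine synthesis, still passed as lower (-1.46, limma adjusted p = 5.8e-05), and GLUL and ALDH18A1 passed as higher. ODC1 was at 28.6, 53.1 and 51.7 TPM at PL and at 96.4 to 248 TPM in the other samples as deposited, a separation shared by 11.3% of all genes. The branched-chain ketoacid dehydrogenase subunit BCKDHA (-0.77 ± 0.11, limma adjusted p = 0.00043) and the aminotransferase GOT2 (-0.67 ± 0.10, limma adjusted p = 0.00051) were among the 7 that passed only as deposited, with GOT1, GPT2, GLUD1, BCAT1 and BCKDHB at -0.48 to -0.85. BCKDHB was lost without PL 3 or PL 6 (limma adjusted p = 0.0586 and 0.0697).

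**Figure D5:**
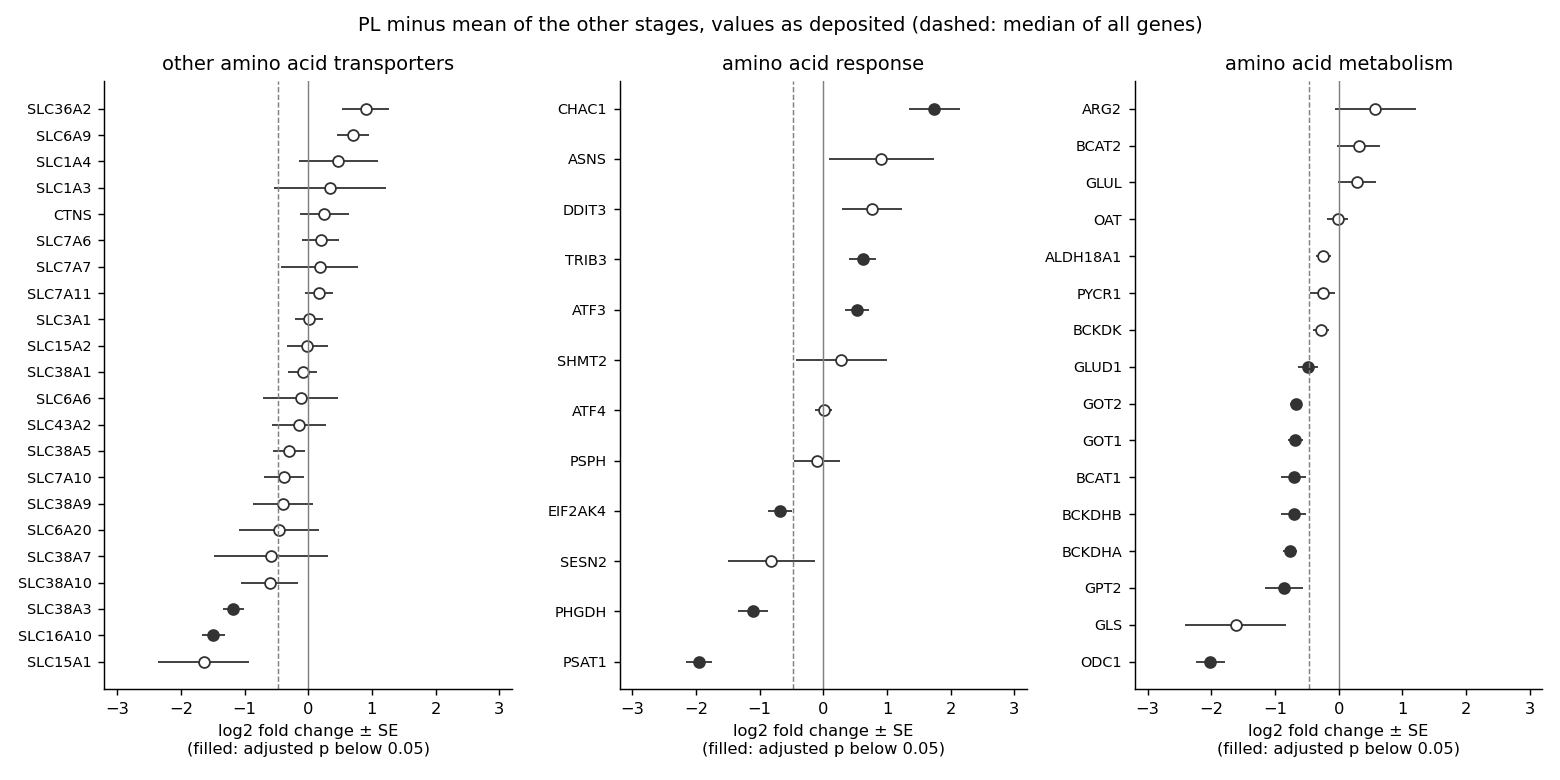
Log2 differences (± SE) at PL against the mean of the other stages, as deposited, for the other amino acid carriers, amino acid response genes and amino acid metabolism genes; filled points passed at an adjusted p below 0.05 and the dashed line marks the median of all genes. SLC16A10, SLC38A3, PSAT1 and ODC1 lie to the left of that line and CHAC1 lies farthest right of its list.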

How the data were processed

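The authors trimmed reads with Trimmomatic, checked them with FastQC, aligned them to Sscrofa11.1 with HISAT2 and quantified transcripts with StringTie; transcripts of at least 0.5 in a stage were kept. The methods name RUVs correction, and whether the deposited values include it is not given in the sources used here. The authors call the deposited values FPKM, but each sample adds up to 997480 to 998888, so the deposited values were treated as TPM. The study's supplement lists reads per library, but the table gives no reads per transcript, so no counting error was computed and precision came from the spread between samples.

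Annotated transcripts were summed per gene by RefSeq symbol (32690 of 32726 matched), assembled loci per locus, giving 26012 features. These were fitted as log2(value + 0.5) with limma 3.58.1 (trended variance, R 4.3.3), the 5 stages in 1 fit, over 10 stage pairs, PL against the mean of the other 4 stages, and an F test. Fold changes are on that scale and understate changes of low genes. P-values were Benjamini-Hochberg adjusted over all features and called below 0.05. The study's count model was not used, because the table holds no counts. Permutation tests used scipy 1.17.1 (exact, or 100000 draws for correlations). The fit was tested on simulated data. Samples were grouped by title. In each stage 3 samples were left out as near-identical: 82.7 to 87.3% of their values carry over 6 decimals, 0% in the others. The labels give separate sows.

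Alternatives covered pseudocounts, a low-value filter, 3 scalings, other sample sets, leading transcripts and a replicate block. The members and lists were chosen with earlier results of these data known. All members were named; from other lists, called genes with the smallest adjusted p, at most 8 per list; for each member the 2 most alike genes (1 of them is not reported here); and transcripts with at least 10% of a member's sum, plus 1 named after its values were seen. SLC6A9, GLUL and ALDH18A1 were named outside this rule, because they were called after median ratio scaling but not as deposited. Transcripts of other annotated forms, and 8 other carriers, ARG1 and PRODH, were not analysed here.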

Additional observations from a re-analysis of the deposited data

How the results depend on the processing

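Of 1290 alternative values of 50 single-gene differences, 1136 kept direction and side of the threshold, 72 lost a call, 33 gained one and 49 changed sign. None of the 49 was called as reported or under the alternative. Causes of the changes below were not tested. The comparison of the compared stages alone could not be fitted for PL against the other stages or for the F test. No counting error was computed for low genes such as SLC7A2.

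As reported, transporters passed 16 times over 11 comparisons, 4 times in W2 against PL, 5 at PL against the other stages and 3 in the F test. With all 6 samples per stage, which counts near-identical samples as replicates, these were 60, 7, 9 and 10. With the near-identical samples as 1 further sample they were 39 over 11 comparisons and 8 in the F test. Leading transcripts gave 3, 1, 1 and 1. With an absolute log2 difference of at least 2 there were 4 over 11 comparisons, 1 in W2 against PL and 1 at PL. Quantile normalization gave 2 in W2 against PL and 3 at PL, median ratio scaling 3 at PL, and rescaling without milk protein and mitochondrial genes 2 in W2 against PL. Leave-one-out counts ran from 11 to 17 over 11 comparisons, from 2 to 5 in W2 against PL, from 3 to 5 at PL and from 3 to 4 in the F test.

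With the replicate block the counts were 5, 2 (W2 against PL), 3 (PL) and 0 (F test). The sample numbers name different sows: deviations of 19 same-numbered pairs correlated at -0.10 to 0.14, 5 of them over 0.1, so the numbers do not pair the samples. Chosen from these correlations, and under other numbers, the samples fell into 3 sets of 1 per stage in which all 30 pairs correlated positively (0.043 to 0.18), against 1 of 60 pairs between sets (-0.11 to 0.021). In each gene the deviations of the 3 samples of a stage add up to 0. Positive pairs within sets therefore go with negative pairs between sets, and these counts are not separate results. What the sets share is not given in the sources used here, and no fit used them. Signs changed under the block for SLC7A5 (PL against EL -0.11, PL against the other stages -0.17), SLC7A1 (PL against EL -0.055) and SLC36A1 (LG against MG -0.034).

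In W2 against PL, signs changed for SLC7A5 under quantile normalization (-0.57), median ratio scaling (-0.62) and rescaling (-0.34), for SLC7A1 under quantile normalization (-0.11) and median ratio scaling (-0.10), and for SLC1A1 under quantile normalization (-0.52), median ratio scaling (-0.49), rescaling (-0.22) and all 6 samples (-0.15). At PL against the other stages they changed for SLC7A1 (0.29, 0.31 and 0.12 under those 3 scalings) and SLC7A8 (0.14, 0.22 and 0.018). In EL against LG they changed for SLC1A5 (0.13, 0.10 and 0.021) and SLC7A1 (0.10 under quantile normalization, 0.012 under median ratio scaling). In LG against MG they changed for SLC1A1 (1.3e-05 under quantile normalization, 0.012 under median ratio scaling), and in PL against EL for SLC7A1 with leading transcripts (-0.18).

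Leave-one-out values changed sign for SLC7A5 in EL against LG (-0.033 to 0.72), PL against EL (-0.31 to 0.37), W2 against PL (-0.021 to 0.33) and PL against the other stages (-0.14 to 0.14). They did so for SLC7A1 in EL against LG (-0.25 to 0.039) and PL against EL (-0.11 to 0.18), and for SLC1A1 in LG against MG (-0.23 to 0.060), W2 against PL (-0.30 to 1.04) and PL against the other stages (-0.24 to 1.10). The same held for SLC1A5 in EL against LG (-0.17 to 0.057) and W2 against PL (-0.31 to 0.027), SLC38A2 in EL against LG (-0.12 to 0.45) and SLC6A14 in LG against MG (-0.23 to 0.98).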
